A study of Homo sapiens with 8 samples.

Results

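A set of 53 transcript isoforms was examined that were lower on polysomes after DDX3X siRNA while their total RNA was not lower. Cells of HT-144, an established line from a human melanoma, received control siRNA or siRNA against DDX3X. Libraries were made from total RNA and from polysomal RNA, the part of a sucrose gradient that holds messengers carrying several ribosomes. This gave 4 groups of 2 libraries: control polysomal, DDX3X polysomal, control total and DDX3X total. All libraries came from the same cell line, and the labels give neither a treatment time nor whether replicates were separate cultures, so the spread between replicates may be technical.

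The members were chosen from the values themselves, given as FPKM, a fragment number per transcript length and library size. Of 65514 isoforms with usable values, 6427 were above 0 in all 8 libraries and averaged 5 FPKM or more. These are called the expressed isoforms below. Among them, members had a higher DDX3X polysomal value at most 0.77 times the lower control polysomal value, and a mean in DDX3X total RNA at least equal to that in control total RNA. The first condition was met by 338 expressed isoforms (5.26%), of which 53 also met the second (15.7%, and 0.825% of the expressed isoforms). The other 285 had a lower total mean. Because these values chose the members, they are given as a description. Where counts from a fit over all isoforms are printed, the share of all isoforms stands beside them and nothing is read from them.

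How much protein a messenger yields depends on its amount and on how many ribosomes load onto it. Comparing polysomal with total RNA helps to separate these. A fall in both fractions can follow the amount of RNA, and a fall on polysomes alone can be a change in how the RNA is distributed. FPKM is relative within a library, so such a fall can also come from the scale of the libraries. DDX3X is a DEAD-box RNA helicase that unwinds structured RNA during translation initiation, and its gene lies on the X chromosome. In bulk RNA of a culture, fewer cells holding an isoform and less of it per cell cannot be told apart. The isoforms carry UCSC-style identifiers that the table does not pair with gene names, and 0 of the 53 were found in the reference gene tables. DDX3X itself, melanocyte markers, gene groups and sequences were therefore not analysed here, and whether members share a gene is unknown.

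The libraries differed in scale. Median-of-ratios factors lay between 0.949 in control total replicate 1 and 1.18, the value of DDX3X polysomal replicate 2, and 12786 to 13481 isoforms reached 1 FPKM. The deposited values summed to between 654252 and 5486857 FPKM, of which 1 isoform outside the set made up 4.88% to 65.6%. The DDX3X polysomal libraries stood apart from each other: the median expressed isoform was at 13.5 FPKM in replicate 1 and 15.5 FPKM in replicate 2. Against the control polysomal library of the same number, the median expressed isoform was at 0.879 times in replicate 1 and at 1.08 times in replicate 2.

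Across the members, polysomal RNA with DDX3X siRNA was at a median of 0.630 times the control mean (range 0.334 to 0.730), whereas total RNA was at a median of 1.16 times the control mean (range 1.01 to 2.64). Over all expressed isoforms these medians were 0.982 and 1.03. The members' median level was 12.6 and 13.7 FPKM in the control polysomal libraries and 7.97 and 9.19 FPKM in the DDX3X polysomal libraries. In total RNA it was 12.8 and 14.5 FPKM with control and 17.9 and 16.6 FPKM with DDX3X siRNA. In each fraction both DDX3X medians thus lay on the same side of both control medians, below them on polysomes and above them in total RNA. The rule used these values. Over all expressed isoforms the total medians had the same order, 12.49 and 12.87 FPKM with control and 12.91 and 13.64 FPKM with DDX3X siRNA. Their polysomal medians overlapped, at 14.8 and 14.2 FPKM with control and 13.5 and 15.5 FPKM with DDX3X siRNA. By replicate number, the members' median polysomal ratio was 0.603 in replicate 1 and 0.667 in replicate 2; the rule keeps both below 1.

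**Figure D1:**
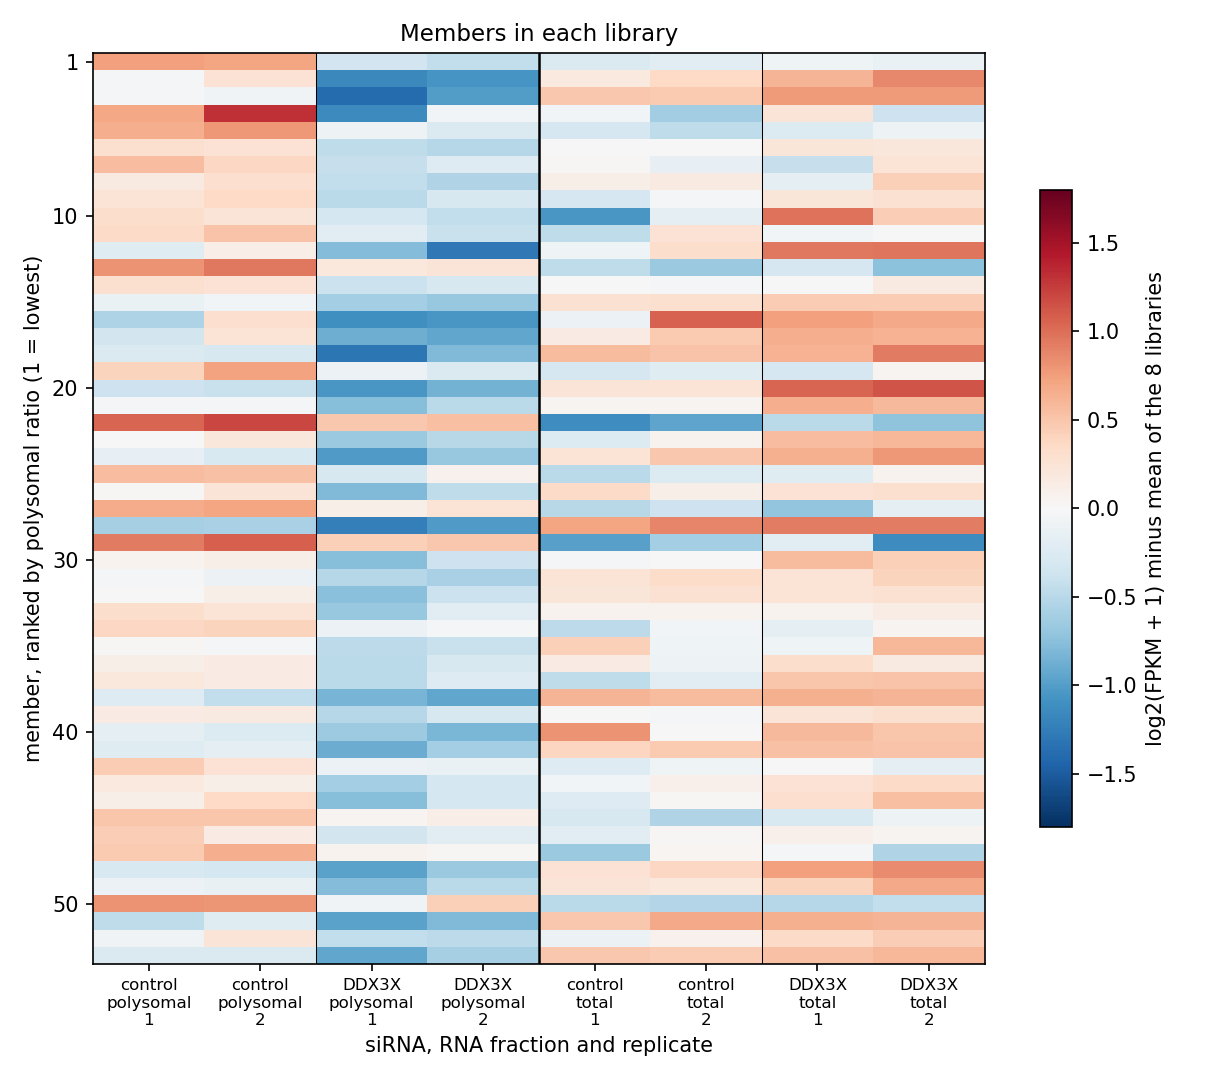
The 53 members (rows, ranked by the ratio of the higher DDX3X to the lower control polysomal value) in the 8 libraries (columns); colour is log2(FPKM + 1) minus the row's mean, red above and blue below. The DDX3X polysomal columns are bluer than the control polysomal columns in every row, as the rule requires, while rows differ in whether polysomal or total RNA is higher with control siRNA.

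Isoform uc003czv.3 had the lowest ratio used by the rule, 0.473. Its polysomal level was 56.5 and 55.4 FPKM with control siRNA and 26.2 and 24.5 FPKM with DDX3X siRNA. Its total RNA was 27.8 and 29.2 FPKM with control and 31.8 and 30.7 FPKM with DDX3X siRNA. Replicates lay close together in all 4 groups. The polysomal groups were far apart, and the total groups were separated by little. The means were 55.9 ± 0.839 and 25.3 ± 1.18 FPKM in polysomal RNA and 28.5 ± 0.993 and 31.3 ± 0.798 FPKM in total RNA (SD, n = 2 each). On the log2(FPKM + 1) scale the polysomal change was -1.11 ± 0.09 and the total change 0.13 ± 0.09 (limma estimate ± SE). Its polysomal level relative to total RNA was 1.96 with control and 0.810 with DDX3X siRNA.

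Isoform uc003upi.2 had the next ratio, 0.487, and was far more abundant. Its polysomal level was 117 and 144 FPKM with control and 53.5 and 57.2 FPKM with DDX3X siRNA. Its total RNA was 137 and 154 FPKM with control and 184 and 219.9 FPKM with DDX3X siRNA. Both fractions separated the siRNAs without overlap, in opposite directions. Its polysomal level relative to total RNA went from 0.897 with control to 0.274 with DDX3X siRNA.

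The other isoforms named are those with the highest ratio of the lower DDX3X total to the higher control total value. In uc002rid.3 this ratio was 1.81: total RNA was 14.4 and 14.5 FPKM with control and 26.2 and 27.8 FPKM with DDX3X siRNA. Its polysomal level was 9.10 and 8.95 FPKM with control and 5.31 and 6.24 FPKM with DDX3X siRNA. A higher total level thus went with a lower polysomal level, and the polysomal level relative to total went from 0.626 to 0.214. In uc009ymt.1 the total ratio was 1.71, from 4.46 and 5.59 FPKM to 9.55 and 9.73 FPKM. Its polysomal level went from 7.53 and 7.30 FPKM to 4.37 and 5.38 FPKM. With control siRNA it was higher on polysomes than in total RNA, and with DDX3X siRNA it was lower. The log2 changes of uc002rid.3 were -0.57 ± 0.11 on polysomes and 0.86 ± 0.11 in total RNA, and those of uc009ymt.1 were -0.52 ± 0.15 and 0.83 ± 0.15 (limma estimate ± SE).

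**Figure D2:**
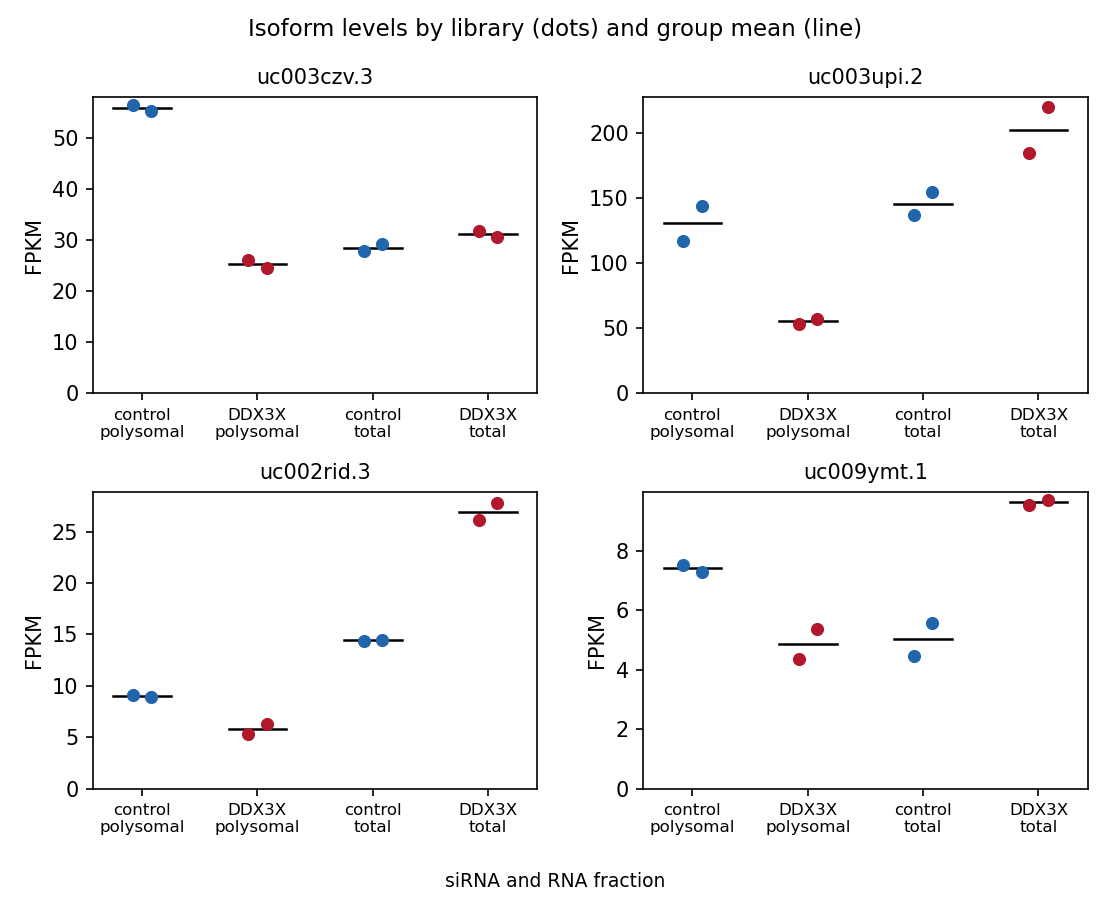
FPKM of 4 members (panels) by siRNA and RNA fraction; dots are libraries (blue control, red DDX3X siRNA), lines are means of 2. In each panel the DDX3X polysomal dots lie below the control polysomal dots, and the DDX3X total dots lie above the control total dots, by the least in uc003czv.3.

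The members spanned low and high levels. By mean over the 8 libraries, 18 members were under 10 FPKM, 16 at 10 to 20, 11 at 20 to 50 and 8 at 50 FPKM or more. The expressed isoforms were spread alike, with 35.9%, 27.1%, 20.9% and 16.1% in these bands against 34.0%, 30.2%, 20.8% and 15.1% of the members. The median polysomal ratio was 0.630, 0.646, 0.576 and 0.622 from the lowest to the highest band. The median total ratio was 1.16, 1.08, 1.17 and 1.29.

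The most abundant member was at 169 and 201 FPKM on polysomes with control and at 92.3 and 126 FPKM with DDX3X siRNA. Its total RNA was 134 and 160 FPKM with control and 194 and 229.5 FPKM with DDX3X siRNA, so neither fraction overlapped between siRNAs. Of the 8 members at 50 FPKM or more, 7 had both DDX3X total values above both control total values, against 75.3% of the 522 expressed isoforms at this level whose total mean was not lower. The exception had 36.8 and 60.8 FPKM in control total RNA and 57.9 and 40.3 FPKM in DDX3X total RNA. Its total replicates overlapped widely, and its place in the set rests on a mean ratio of 1.01.

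The polysomal mean was at or below 0.5 times the control mean in 6 members (11.3%). This held for 1.14% of the expressed isoforms and for 18.6% of the 285 with the same polysomal fall and a lower total mean. The lowest member, at 0.334, had 47.0 and 72.1 FPKM with control and 12.3 and 27.4 FPKM with DDX3X siRNA. Its replicates were far apart in both groups, and its total RNA, at 27.4 and 18.1 FPKM with control and 33.7 and 21.9 FPKM with DDX3X siRNA, overlapped between siRNAs. On control polysomes the replicates of 9 members (17.0%) differed by more than 1.2 times, against 25.8% of the expressed isoforms. On DDX3X polysomes those of 19 members (35.8%) did, against 51.1%. In total RNA this held for 18 members (34.0%) with control, against 22.9%, and for 13 (24.5%) with DDX3X siRNA, against 21.2%. Among the 285 with the same polysomal fall and a lower total mean, the share was 25.6% on control and 41.8% on DDX3X polysomes. In their total RNA it was 29.1% with control and 30.2% with DDX3X siRNA. The rule sets the higher DDX3X against the lower control polysomal value. Whether it favours pairs that lie close together was not tested.

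How far total RNA was kept or raised differed among members. Both DDX3X total values lay above both control total values in 33 of 53 members (62.3%), against 36.2% of the expressed isoforms. Of the 3532 expressed isoforms whose total mean was not lower, 65.9% did so, and the members' share was near this background. Total RNA was below 1.1 times the control mean in 22 members (41.5%, against 61.9% of the expressed isoforms). It was at 1.2 times or more in 21 (39.6%, against 25.5%) and at 1.5 times or more in 6 (11.3%, against 7.48%). The rule leaves out isoforms with a lower total mean, which these shares of the expressed isoforms include. Of the 3532 without a lower mean, 1641 reached 1.2 times and 481 reached 1.5 times, larger shares than among the members. A smaller share of the 3532 than of the members was below 1.1 times. The members' highest ratio of means, 2.64, came from an isoform at 4.22 and 8.61 FPKM with control and 20.2 and 13.6 FPKM with DDX3X siRNA. In 3 members the log2 change in total RNA was slightly below 0 although the mean FPKM was not lower.

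**Figure D3:**
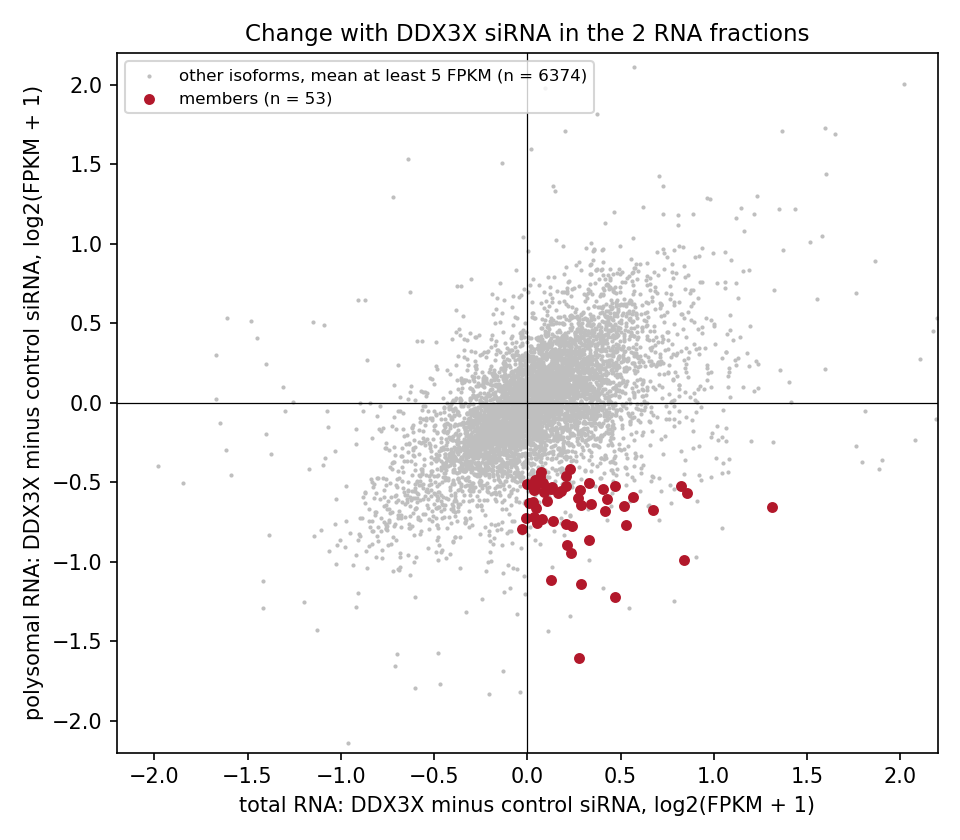
Change with DDX3X siRNA on the log2(FPKM + 1) scale in total RNA (x axis) and polysomal RNA (y axis) for 53 members (red) and the 6374 other expressed isoforms (grey); 17 isoforms fall outside the axes. By the rule, members lie below 0 on the y axis and, with 3 slightly negative values, above 0 on the x axis.

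The sizes of the 2 changes were not ordered alike among members. Across the 53 members, which share the same 8 libraries and were cut by the rule on both axes, the log2 ratios of polysomal and total means correlated with r = -0.0788 (Pearson) and rho = -0.138 (Spearman). Across the 6427 expressed isoforms these were 0.266 and 0.562. These are correlations across isoforms, which are not independent replicates.

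At the limits of the rule the values ran on without a gap. The 3 members just inside the fold had ratios of 0.762, 0.764 and 0.767, and the 3 isoforms just outside it, with total RNA not lower, had 0.774, 0.775 and 0.776. In total RNA the 3 members just inside had ratios of means of 1.0056, 1.0066 and 1.0067, and the 3 isoforms just outside had 0.993, 0.996 and 0.999. Which isoforms near these limits are members is therefore a matter of small differences.

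Polysomal and total RNA were then set against each other within each siRNA. A ratio of 1 does not mean that all RNA was on polysomes, because each library has its own scale. With control siRNA the members' median ratio of polysomal to total FPKM was 1.08, against 1.19 for the expressed isoforms. With DDX3X siRNA it was 0.551 for the members, against 1.16. The ratio with DDX3X siRNA divided by that with control was 0.539 at the median (range 0.230 to 0.689) in the members and 0.975 in the expressed isoforms. The rule used the same libraries, so the fall of this ratio is a description of the choice.

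With control siRNA, both polysomal values lay above both total values in 27 members, against 55.7% of the expressed isoforms, and below them in 16 members, against 21.0%. As shares these were 50.9% and 30.2% of the members. With DDX3X siRNA both polysomal values lay above both total values in 7 members, against 47.8% of the expressed isoforms, and below them in 39 members (73.6%), against 23.6%. In 13 members the order of the fractions turned over without overlap of replicates, from polysomal above total to polysomal below total, against 2.29% of the expressed isoforms. By the test of each siRNA's fractions over all 15531 isoforms tested, 11 members were higher on polysomes with control siRNA (limma adjusted p under 0.05; 12.7% of all tested) and 9 were lower (4.16%). With DDX3X siRNA 4 were higher (12.4%) and 33 were lower (6.48%). The rule used the polysomal and total values of both siRNAs, so nothing is read from these counts either.

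By group means, the members fell into 3 patterns. In 24 members polysomal exceeded total FPKM with control and lay below it with DDX3X siRNA, with a median ratio of 1.41 and then 0.658. In 22 members polysomal RNA was the lower with both siRNAs, at a median of 0.663 and then 0.331. In 7 members it was the higher with both, at a median of 2.62 and then 1.66. Median polysomal ratios in these patterns were 0.610, 0.635 and 0.671. Median total ratios were 1.17, 1.12 and 1.05. The patterns held 45.3%, 41.5% and 13.2% of the members, against 9.97%, 26.0% and 58.4% of the expressed isoforms. The rule chose lower polysomal RNA with total RNA kept, so these shares describe the choice. After median-of-ratios scaling the 3 patterns held 18, 28 and 7 of the members.

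The 7 members that stayed higher on polysomes included the isoform with the highest control ratio, 4.61. It was at 96.5 and 108 FPKM on polysomes and 20.8 and 23.5 FPKM in total RNA with control siRNA. With DDX3X siRNA it was at 65.3 and 68.1 FPKM on polysomes and 32.7 and 27.6 FPKM in total RNA. Its ratio was then 2.21, still well above the median expressed isoform. The lowest control ratio, 0.357, belonged to a member of the second pattern with 8.41 and 8.57 FPKM on polysomes and 22.4 and 25.1 FPKM in total RNA. With DDX3X siRNA it had 5.07 and 6.07 FPKM on polysomes and 25.9 and 26.1 FPKM in total RNA.

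**Figure D4:**
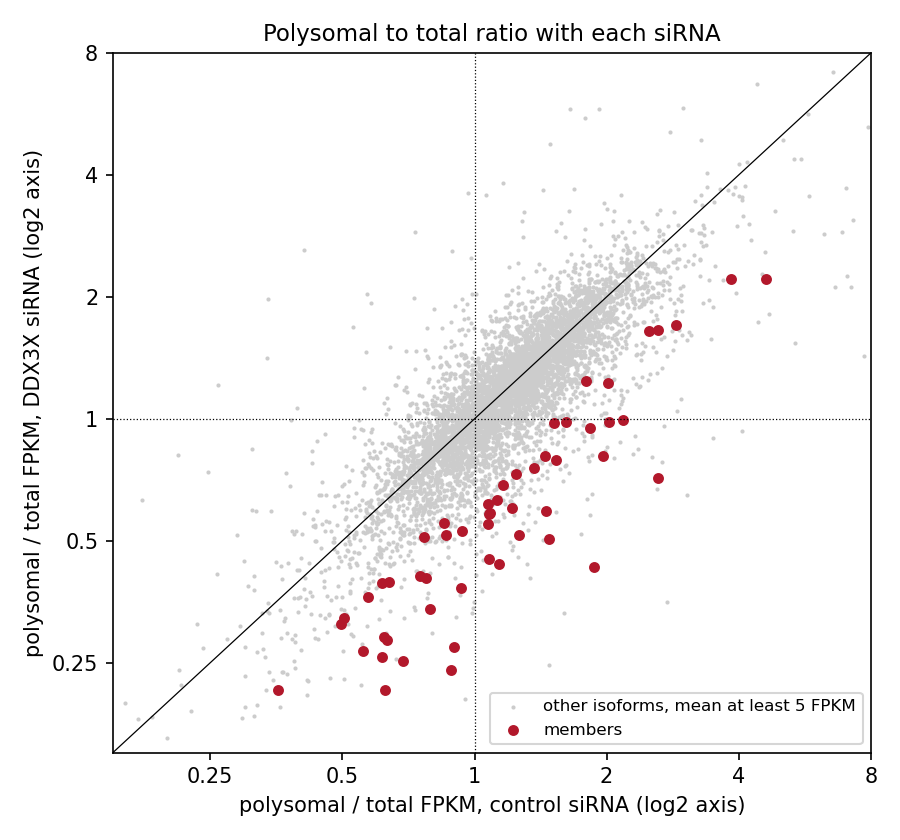
Ratio of polysomal to total FPKM with control siRNA (x axis, log2) and with DDX3X siRNA (y axis, log2), from means of 2 libraries, for members (red) and other expressed isoforms (grey); the solid line marks equal ratios, dotted lines a ratio of 1, and 29 isoforms fall outside the axes. Members lie below the line by the rule; 24 are at the lower right, 22 at the lower left and 7 at the upper right.

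The polysomal and total changes were also fitted across all 15531 tested isoforms, in which all 53 members were included. In polysomal RNA 5 members passed as lower (limma adjusted p under 0.05; 0.122% of all tested) and 0 as higher (0.167%). In total RNA 1 member passed as higher (0.56% of all tested) and 0 as lower (0.212%). For the difference between these changes 2 members passed as lower (0.0837% of all tested) and 0 as higher (0.0322%). The members' median log2 changes were -0.62, 0.21 and -0.83, against -0.02, 0.04 and -0.05 over all tested isoforms. Nothing is read from these counts, since the rule used the same contrasts.

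A reading in libraries that the choice did not use was obtained by applying both conditions to 1 library per group and looking at the other. This has 1 library per group and no test, and the expression filter still used all 8 libraries. In the libraries numbered 1, 645 expressed isoforms (10.04%) met both conditions, and in those numbered 2, 167 did (2.60%). The lists shared 54 isoforms, which is 8.37% of the longer and 32.3% of the shorter list. This is 1 overlap, and its shares differ because the lists differ in length. Most isoforms chosen on a single library per group thus did not meet the conditions in the other.

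The differences were smaller in the libraries not used. The median polysomal ratio of the 645 isoforms was 0.667 where they were chosen and 0.997 in the other libraries, where the median expressed isoform was at 1.08. That of the 167 isoforms went from 0.676 to 0.722, where the median expressed isoform was at 0.879. In the libraries used for the choice, the median expressed isoform was at 0.879 for the 645 and at 1.08 for the 167. In total RNA the medians were 1.15 and then 1.09 for the 645, and 1.252 and then 1.08 for the 167, beside 1.03 and 1.02 for the expressed isoforms in the libraries not used. After median-of-ratios scaling the lists held 279 and 250 isoforms (4.34% and 3.89% of the expressed isoforms) and shared 61, which is 21.9% and 24.4% of them. At a stricter fold of 0.67, unscaled, the 80 isoforms chosen in the libraries numbered 2 had a median total ratio of 0.979 in the others. There the median expressed isoform was at 1.02. The 332 chosen in the libraries numbered 1 had 1.12 in the others, where the median expressed isoform was at 1.03.

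Membership depended on the scale of the libraries. After median-of-ratios scaling 52 isoforms met the rule, of which 31 were members, and after quantile normalization 55 did, of which 36 were members. The rule was met under both scalings by 31 members, among them the 4 named isoforms. In 28 of these 31, both DDX3X total values also reached both control total values in unscaled FPKM. Leaving out a polysomal library can only loosen the fold condition: 366 isoforms met the rule without DDX3X polysomal replicate 2, and 77 without DDX3X polysomal replicate 1.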

How the data were processed

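Total and polysomal RNA of HT-144 cells was sequenced with paired-end reads of 75 bp, per the labels' protocols. TopHat2 and Cufflinks 2.2.1 with genome build hg38 were used, per the submitters' processing notes; their annotation and parameters are not given in the sources used here. FPKM values for 65535 isoforms in 8 libraries were deposited by the authors, per the file headers. Cufflinks estimates how reads divide among isoforms that overlap, so isoforms of a gene depend on each other, and depth is unknown. Left out were 21 rows holding text or the same value throughout; 5 decimal commas were read as points. Members were counted on unscaled FPKM. For tests, log2(FPKM + 1) of isoforms with at least 1 FPKM in 2 libraries (15531) was fitted with limma 3.58.1 (R 4.3.3), as group means with a variance trend (4 residual, 2.65 prior degrees of freedom). Benjamini-Hochberg adjustment ran over all tested isoforms; fold changes on this scale understate those of low isoforms. The code was tested on simulated data. Named were the 2 members with the smallest ratio of the higher DDX3X to the lower control polysomal value and the 2 with the largest ratio of the lower DDX3X to the higher control total value. The members, rule and tests were chosen with earlier results of these data known. Alternatives covered fold, filter, pseudocount, scaling, replicate block and each library left out. Figures were drawn with matplotlib 3.10.9 (Python 3.11.15).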

Additional observations from a re-analysis of the deposited data

Results flagged for a closer look

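The rule chose isoforms whose polysomal RNA was lower while total RNA was not, so the difference between the 2 changes is part of the choice and its p-values support nothing about the members. They are listed because 2 members passed the test of that difference over all 15531 isoforms, as 0.0837% of all tested did in this direction. The 12 other settings named below leave out the fit with no filter and the fit with a replicate block. With the block 1 member passed for this difference, so at least 1 of these 2 did not. For uc003czv.3 the difference was -1.24 ± 0.12 on the log2 scale (SE; limma adjusted p = 0.0288), with a limma adjusted p of 0.0311 to 0.207 over 12 other settings, of which 4 passed. For uc002rid.3 it was -1.43 ± 0.16 (limma adjusted p = 0.0489), with 0.0102 to 0.282 over the same 12 settings, of which 4 passed.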

How the results depend on the processing

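The number of members followed the rule's limits: 15 at a fold of 0.67, 138 at 0.87, 193 at a mean of at least 1 FPKM, 35 at 10 FPKM and 33 when both DDX3X total values had to reach both control total values. Leaving out single libraries gave 55 to 366 (102 and 104 without control polysomal replicates 1 and 2, 366 without DDX3X polysomal replicate 2). Counts of members that passed are given with the count over all isoforms tested in parentheses. In polysomal RNA 5 (45) became 13 (215) with median-of-ratios scaling, 8 (130) with quantile normalization, 3 (192) with no filter and 0 to 14 (5 to 250) without single libraries, the highest without DDX3X polysomal replicate 2. In total RNA 1 (120) became 3 (465) with median-of-ratios scaling, 5 (539) with quantile normalization and 0 to 1 (5 to 235) without single libraries. For the difference 2 (18) became 1 (13) at a pseudocount of 0.1, 4 (219) with no filter and 0 to 3 (9 to 24) without single libraries. Between fractions 20 (2622) with control siRNA became 13 (1668) with no filter and 8 to 23 (920 to 3109) without single libraries, and 37 (2935) with DDX3X siRNA became 24 to 34 (1148 to 2569). The median log2 change over members ranged from -0.68 to -0.52 on polysomes, 0.18 to 0.29 in total RNA and -0.94 to -0.75 for the difference without single libraries. At a pseudocount of 5 these changes on polysomes and for the difference were -0.47 and -0.64, and the polysomal to total median with DDX3X siRNA, -0.83, was -0.62 (-0.91 to -0.73 without single libraries). The members' median log2 difference between fractions with control siRNA, 0.11, turned to -0.055 with median-of-ratios scaling and -0.071 with quantile normalization (0.08 to 0.18 without single libraries). The isoforms shared by the lists from each replicate were 5.12% and 21.2% of the lists at a fold of 0.67. Of the expressed isoforms, 1.24% and 5.17% met both conditions in the libraries not used. With median-of-ratios scaling these shares were 21.9% and 24.4%, against 3.89% and 4.34%. Causes of these shifts were not tested. Without a library its group has 1 sample, which is assumed to vary like the other groups.

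Replicate numbers are shared across groups in the sample titles only. Same-numbered libraries did not deviate together (correlations of deviations from the group means between -0.0849 and 0.0795), so the numbers were not taken to pair them. With the replicate number as a block, 1 member passed in polysomal RNA, 0 in total RNA and 1 for the difference (6, 21 and 12 of all tested isoforms). Depth was unknown, so no counting error could be given.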

Other observations

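The reverse pattern was rarer in these libraries. With the rule mirrored, so that the lower DDX3X polysomal value was at least the higher control polysomal value divided by 0.77 and the total mean was not higher, 19 isoforms were found among 332 past that fold on polysomes (5.72%), beside the 53 members among 338 past the fold downwards (15.7%). After median-of-ratios scaling, tried after the data were seen, the counts were 24 of 334 (7.19%) and 52 of 393 (13.2%), and after quantile normalization 22 of 335 (6.57%) and 55 of 362 (15.2%). The total mean was not lower in 55.0% of all 6427 expressed isoforms, and in 2951 of them after median-of-ratios scaling. The difference in shares between the rule and its mirror was not tested.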
